A study of Mus musculus with 2 samples.

Results

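The 9 nuclear genes of the mitochondrial iron-sulfur cluster assembly machinery described here were followed through adrenal gland RNA of adult mice: Iscu, Nfs1, Lyrm4, Hscb, Glrx5, Isca1, Isca2, Bola3 and Nfu1. They were chosen by gene symbol, for their place in this pathway, and all 9 were found among the 43346 mouse genes of the deposited tables, together with 35 annotated transcripts. The study holds 2 libraries of 1 group, replicate 1 and replicate 2, which the labels number as biological replicates. Both come from C57BL/6J mice of 8 weeks, from littermates of both sexes, with no treatment or genetic change named, and the labels do not say whether a library is 1 animal or a pool. The RNA was poly(A)-selected, longer than 200 nt, and read as stranded pairs of 76 nt. With 1 group there is no condition to compare, so the libraries are set beside each other to show how closely a level repeats. Both libraries carry the same donor identifier and different biosample identifiers, and the labels do not say how separate the animals behind them were, so an SD over the 2 libraries may be partly technical.

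Iron-sulfur clusters are small inorganic cofactors that carry electrons or bind substrates in enzymes of respiration, the citric acid cycle, lipoate synthesis, haem synthesis and DNA repair. In mitochondria, the cysteine desulfurase NFS1, held stable by LYRM4 and an acyl carrier protein, takes sulfur from cysteine and passes it to the scaffold ISCU, with a ferredoxin taking part. The co-chaperone HSCB and the chaperone HSPA9 then release the cluster to GLRX5, from which ISCA1 and ISCA2 build the larger cubane cluster, and NFU1 and BOLA3 bring such clusters to particular enzymes. In the adrenal cortex the best known client is ferredoxin 1 (adrenodoxin), which feeds electrons to the mitochondrial cytochromes P450 of steroid synthesis.

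Sequences of 3 kinds bear on the results. The first is the short transcript Bola3-205, shown because most of the TPM of Bola3 (a relative level corrected for transcript length) was assigned to it. It lies at chr6:83349491-83350400 on the plus strand of mm10, and the capitals mark its first exon of 64 bases, which holds 10 bases of the untranslated region and 54 coding bases of the coding transcript Bola3-207. The lower-case part is its second exon of 125 bases. The sequence is from the GENCODE M21 transcripts.
Bola3-205: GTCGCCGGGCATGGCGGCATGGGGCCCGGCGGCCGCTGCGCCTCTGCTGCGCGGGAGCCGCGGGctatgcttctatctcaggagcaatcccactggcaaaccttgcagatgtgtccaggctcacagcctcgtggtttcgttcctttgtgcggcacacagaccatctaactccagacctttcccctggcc

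The second is the stretch between the starts of Npc2 and Isca2, shown because the 2 genes run apart from a gap of only 98 bases. It lies at chr12:84773153-84773250 of GRCm38.p6 and is written on the strand of Isca2, from RefSeq. Capitals mark a CCAAT box, a GC box (GGGCGG) and a GC box on the other strand (CCGCCC).
Npc2 to Isca2: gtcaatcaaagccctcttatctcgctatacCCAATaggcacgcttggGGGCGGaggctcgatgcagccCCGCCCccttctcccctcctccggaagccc

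The third is the RefSeq sequence of 250 bases before the start of Glrx5 and of Isca1, shown because these promoters hold, in turn, 4 CCAAT boxes and a match to each of 3 kinds of motif. Glrx5 is at chr12:105032368-105032617 on the plus strand and Isca1 at chr13:59769790-59770039 on the minus strand, both GRCm38.p6. RefSeq places these starts elsewhere than the GENCODE M21 gene positions given below: the Glrx5 stretch ends 70 bases before the GENCODE start, and the last 21 bases of the Isca1 stretch, with the NRF1 core, lie inside the GENCODE gene. Capitals mark CCAAT on either strand and, in Isca1, also an ETS motif on the other strand (ACTTCCGG) and the NRF1 core (GCGCCTGCGC).
Glrx5: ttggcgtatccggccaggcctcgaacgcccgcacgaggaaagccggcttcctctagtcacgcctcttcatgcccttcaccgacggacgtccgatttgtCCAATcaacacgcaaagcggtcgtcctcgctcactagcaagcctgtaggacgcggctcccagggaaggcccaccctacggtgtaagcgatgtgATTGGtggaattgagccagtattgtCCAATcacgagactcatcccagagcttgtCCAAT
Isca1: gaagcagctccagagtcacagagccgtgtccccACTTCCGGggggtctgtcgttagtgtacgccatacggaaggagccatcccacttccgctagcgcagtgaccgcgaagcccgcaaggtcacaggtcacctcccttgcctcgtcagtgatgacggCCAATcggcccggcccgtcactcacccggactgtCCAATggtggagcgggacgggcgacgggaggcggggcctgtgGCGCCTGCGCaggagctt

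Over the 43346 mouse genes the libraries held 47615334 expected counts (estimated read pairs, not normalised) in replicate 1 and 52890677 in replicate 2. Spike-in RNAs took 0.656% and 0.486% of the counts of these genes plus spike-ins, in the same order. Adrenal markers were present: all 10 cortical steroidogenic markers and all 10 chromaffin markers passed 1 TPM in both libraries, the level called detected below. The libraries did not hold the same mix. Cortical markers summed to 29277 TPM in replicate 1 and 36847 TPM in replicate 2, chromaffin markers to 4852 and 4132 TPM, and adipocyte markers, all 10 detected, to 14845 and 6616 TPM. Of 8 hepatocyte markers 2 were detected, with a sum of 6.47 TPM in replicate 1, where Ttr and Cps1 were listed at 0, and 37.9 TPM in replicate 2. Of 7 erythroid markers 5 were detected, with a sum of 3760 and 4908 TPM. Endothelial markers, 6 of 6 detected, summed to 1240 and 1042 TPM, and macrophage markers, 7 of 7 detected, to 988 and 918 TPM.

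All 9 assembly genes were detected, Lyrm4 narrowly, and 7 of the 9 lay above the median of the 11718 detected protein-coding genes. Their median level was 59.6 TPM in replicate 1 and 63.1 TPM in replicate 2, against a median of 15.8 and 16.2 TPM for detected coding genes. Together they made 1142 TPM in replicate 1 and 1281 TPM in replicate 2 (1212 ± 98.2, SD, n = 2). This was 0.116% and 0.129% of the TPM of the 43346 mouse genes. Iscu, Bola3, Glrx5 and Nfs1, 4 of the 9, passed 100 TPM in both libraries. Both counts include Bola3 through the short transcript printed above: without transcripts under 200 nt, 6 of the 9 lay above the median and 3 passed 100 TPM. Glrx5 is counted with its deposited length, which differs from GENCODE M21 as given below. Nfs1 passed 100 TPM only with its transcripts summed, also as given below. The level of the highest gene, Iscu, was 271 times that of the lowest, Lyrm4, in replicate 1 and 319 times in replicate 2.

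**Figure D1:**
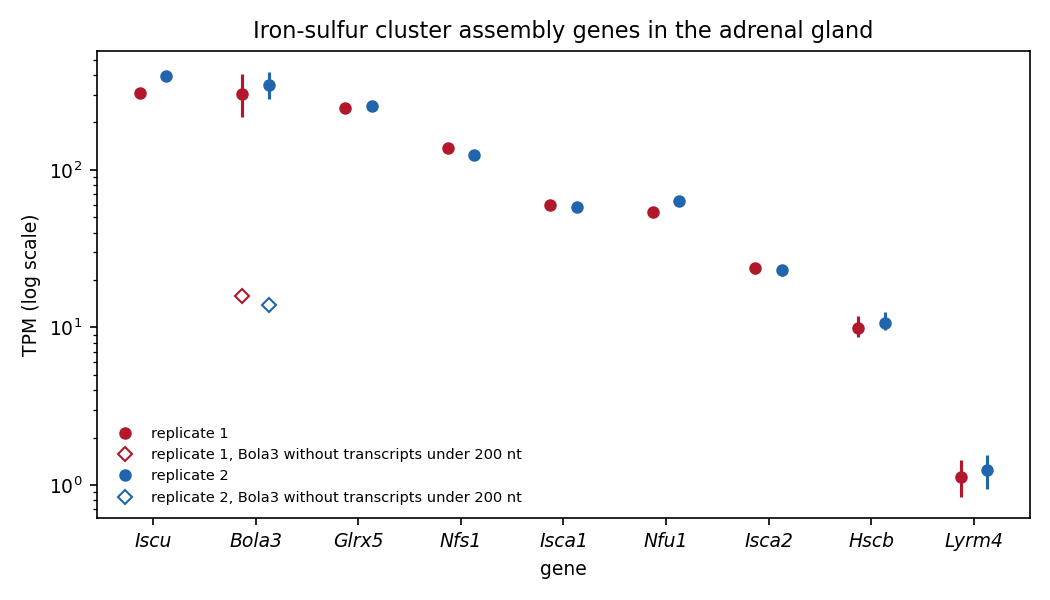
TPM of the 9 assembly genes (log scale) in replicate 1 (red, left) and replicate 2 (blue, right), ordered by mean; vertical lines are the authors' own intervals for TPM, whose confidence level the headers do not give, and open diamonds give Bola3 without transcripts under 200 nt. Mean levels run from 351 TPM for Iscu to 1.19 TPM for Lyrm4, and Bola3, near Iscu with all transcripts, is at 15.9 and 13.8 TPM without the short transcript.

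The scaffold and the desulfurase complex spanned the whole range of levels. Iscu (ENSMUSG00000025825.8, chr5:113772748-113778288, plus strand), the scaffold on which the cluster forms, had 306 TPM in replicate 1 and 396 TPM in replicate 2 (351 ± 63.6, SD, n = 2), and exceeded 96.5% of detected coding genes. Nfs1 (ENSMUSG00000027618.13, chr2:156123639-156144186, minus strand), the desulfurase, stood at 137 and 125 TPM (131 ± 8.55), above 89.1% of detected coding genes. Lyrm4 (ENSMUSG00000046573.6, chr13:35978395-36117526, minus strand), the small LYR-motif partner that stabilises NFS1, had only 1.13 and 1.24 TPM (1.19 ± 0.0778), above 0.632% of them. The scaffold was more abundant than the desulfurase in both libraries, by a TPM ratio of 2.24 in replicate 1 and 3.18 in replicate 2. Nfs1 TPM was 121 and 100 times that of its partner Lyrm4. These ratios take Nfs1 over all its transcripts. The 709 nt Nfs1-202 held 58.0% and 52.2% of that TPM, and the 13-exon Nfs1-201 had 49.6 and 51.9 TPM. Nfs1 also overlaps Romo1 at its start, as given below.

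Lyrm4 rested on few reads, 52 counts in replicate 1 and 61 in replicate 2. Its 1 deposited transcript is 1515 nt long, whereas the transcript of the same name is 2086 nt in GENCODE M21, so its length differs between annotations. Another partner of the desulfurase complex, the acyl carrier protein Ndufab1, had 4231 TPM in replicate 1 and 2198 TPM in replicate 2. Ndufab1 is also a subunit of respiratory complex I.

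The transfer and carrier genes differed from each other too. Hscb (ENSMUSG00000043510.8, chr5:110829070-110839777, minus strand), the J-domain co-chaperone, had 9.90 TPM in replicate 1 and 10.7 TPM in replicate 2 (10.3 ± 0.552), from 193 and 245 counts. Its partner Hspa9, the mitochondrial Hsp70, had 129 and 156 TPM, which is 13.0 and 14.6 times the TPM of Hscb. Glrx5 (ENSMUSG00000021102.3, chr12:105032688-105042906, plus strand), the monothiol glutaredoxin that receives the first cluster, stood at 247 and 256 TPM (252 ± 6.27), above 94.8% of detected coding genes. Glrx5 carries the caution that its deposited transcript is 930 nt, against 2925 nt in GENCODE M21. TPM divides by length, so the level of Glrx5 depends on which of these lengths is taken.

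Among the genes for the larger cluster, the A-type proteins were unequal. Isca1 (ENSMUSG00000044792.6, chr13:59755409-59769810, minus strand) had 59.6 TPM in replicate 1 and 58.4 TPM in replicate 2 (59.0 ± 0.891). Isca2 (ENSMUSG00000021241.6, chr12:84773251-84775088, plus strand), which acts with ISCA1, had 24.0 and 23.3 TPM (23.7 ± 0.495). The TPM ratio of Isca1 to Isca2 was 2.48 in replicate 1 and 2.50 in replicate 2, and their values did not overlap between libraries. Iba57, which works with both A-type proteins, had 15.6 and 15.8 TPM.

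The late targeting factors were Nfu1 and Bola3, both known in humans for inherited lipoate and respiratory chain defects. Nfu1 (ENSMUSG00000029993.12, chr6:87009236-87028461, plus strand) had 53.7 TPM in replicate 1 and 63.1 TPM in replicate 2 (58.4 ± 6.65), around the level of Isca1. Bola3 (ENSMUSG00000045160.10, chr6:83349147-83360136, plus strand) stood at 304 and 348 TPM (326 ± 31.0), a level that depended on 1 transcript. In the order of mean levels, Iscu and Bola3 overlapped between libraries, as did Isca1 and Nfu1, and the other neighbours did not overlap.

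The high TPM of Bola3 came from Bola3-205, the short sequence printed above. It is annotated as a processed transcript without a coding frame and is 189 nt long, shorter than the size limit of 200 nt that the labels give for the RNA. It was assigned 35 of the 641 counts of Bola3 in replicate 1 (5.46%) and 90 of the 706 counts in replicate 2 (12.7%). In TPM it held 94.8% and 96.0% of the gene, at 288 TPM in replicate 1 (authors' interval 200 to 391) and 334 TPM in replicate 2 (267 to 404). The deposited effective length of this transcript, the number of positions where a fragment could start, was 3.49 and 7.26 bases, so that each count was worth 8.23 TPM in replicate 1 and 3.71 TPM in replicate 2.

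The coding transcript Bola3-207 took most of the counts, 400.42 in replicate 1 (62.5%) and 460.96 in replicate 2 (65.3%), yet only 5.44 and 5.84 TPM. Without transcripts shorter than 200 nt, an alternative chosen after seeing the data, Bola3 had 15.9 TPM in replicate 1 and 13.8 TPM in replicate 2 (14.9 ± 1.47) and was seventh of the 9 genes instead of second. Of 11718 detected coding genes, 123 have a transcript this short, and Bola3 was the only 1 with more of its TPM in such transcripts than in longer ones, in both libraries.

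Transcript use was otherwise simple for most of the genes. Glrx5, Isca2 and Lyrm4 have 1 deposited transcript each, and in Isca1 the transcript Isca1-201 held 98.9% of TPM in replicate 1 and 99.0% in replicate 2. Hscb-201 held 86.6% and 100%. In Iscu, Iscu-201 led with 60.6% and 63.3%, followed by Iscu-203 with 20.4% and 17.3%, and a transcript annotated for nonsense-mediated decay, Iscu-204, averaged 10.9% ± 0.171 (SD, n = 2). In 5 of the 9 genes 1 transcript held over 90% of TPM in both libraries, Bola3 included.

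Nfs1 and Nfu1 changed their leading transcript with the measure. By TPM, Nfs1-202, a 709 nt transcript of 3 exons at the 5′ end of the gene, led with 58.0% in replicate 1 and 52.2% in replicate 2. By counts, the 13-exon Nfs1-201 led with 63.9% and 68.1%, at 49.6 and 51.9 TPM. In Nfu1, Nfu1-206 held 48.9% and 56.2% of TPM and Nfu1-202 held 47.6% and 41.5%, and by counts Nfu1-202 led in replicate 1 with 51.4% and Nfu1-206 in replicate 2 with 52.0%. These splits rest on how the authors divided reads between transcripts that share exons.

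**Figure D2:**
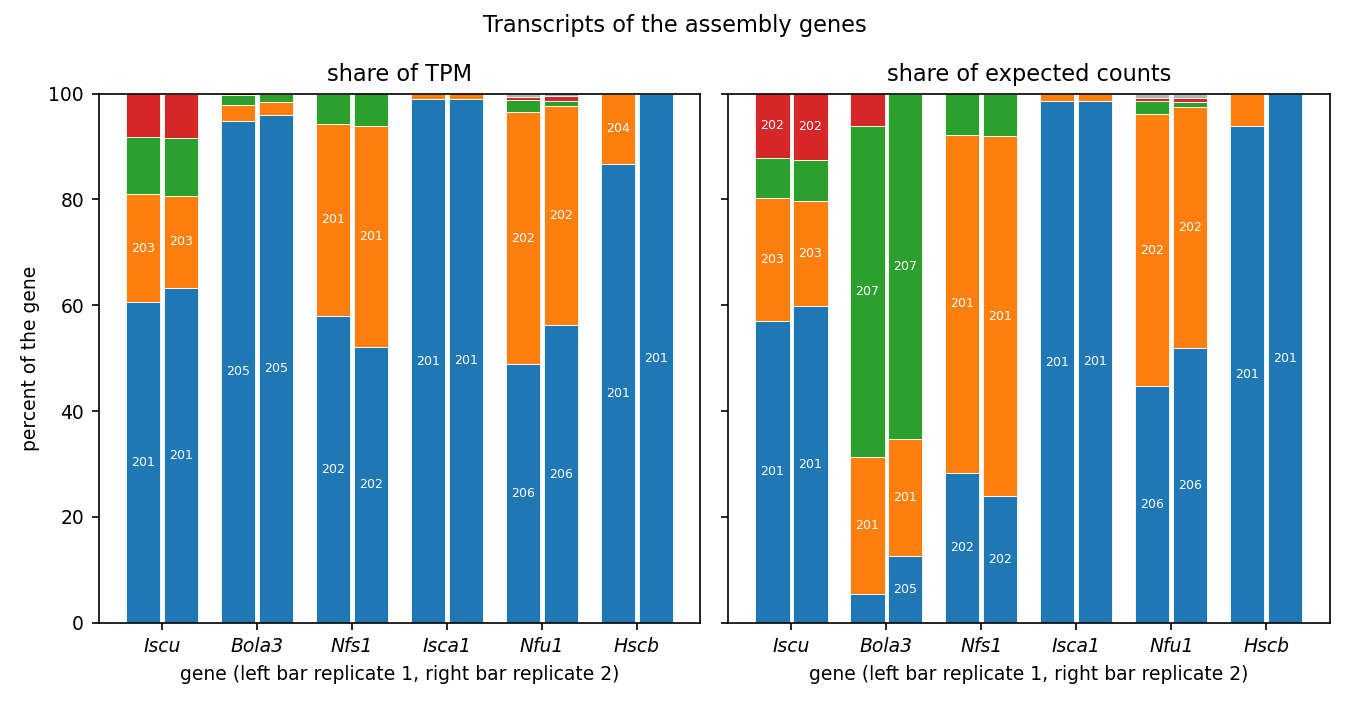
Share of each transcript in its gene by TPM (left panel) and by expected counts (right panel), in percent, for the 6 assembly genes with more than 1 deposited transcript; the left bar is replicate 1 and the right bar replicate 2, and numbers name the transcript. Bola3-205 fills 94.8% and 96.0% of the TPM bars but 5.46% and 12.7% of the count bars, and Nfs1-202 and Nfs1-201 change places.

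Some reads could have come from similar genes or from genes that overlap on the same strand. Gm49354 overlaps Isca1 in this way over 115 exon bases, and Gm28036 overlaps Nfs1 over 256. Isca1-201 shared 55.1% of its 76-base windows with AK157302 or Gm49354, and AK157302 was given 0.0300 TPM in replicate 1 and 0.0900 TPM in replicate 2. Iscu-201 shared 13.6% of its windows with the processed pseudogene Gm16437, at 1.87 and 1.44 TPM. Nfs1-201 shared 9.26% with Gm28036, at 2.31 and 2.97 TPM, and Nfu1-202 shared 2.40% with the pseudogene Gm7859. Neither Gm49354 nor Gm7859 was found among the deposited genes, so no level is given for them. The levels of Isca1, Iscu and Nfs1 are uncertain for this reason, by an amount that a share of windows does not measure. AK157302 was given 1.52 counts in replicate 1 and 5.81 in replicate 2, beside 3636.47 and 3821.19 for Isca1. No transcript of Bola3, Glrx5, Hscb, Isca2 or Lyrm4 shared such a window with another gene in the same direction. Even so, the Glrx5 count in replicate 1, 6314.96, was fractional, which the window search does not account for. Windows on the opposite strand were not searched, and Lyrm4 overlaps Fars2 there over 115 exon bases.

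The 9 genes were also compared between the libraries, with TMM scaling of the counts. None of the 9 (0 of 9) was past 2-fold in either direction, where 7.63% of genes were (1208 of the 15824 whose counts summed to 20 or more), 4.78% higher in replicate 1 and 2.86% higher in replicate 2. None was past 1.5-fold either, against 19.7% of the genes, 11.5% higher in replicate 1 and 8.21% higher in replicate 2. With spike-in scaling, Iscu (log2 ratio -0.76), Hscb (-0.63) and Nfu1 (-0.61) were past 1.5-fold, where the median of all genes tested was -0.43. The median log2 ratio of replicate 1 over replicate 2, on scaled counts, was -0.01 for the 9 genes and 0.00 for all genes tested, and the median size of the log2 ratio was 0.0788 for the 9 genes against 0.260 for all. Of the 9 ratios 5 were negative, against 50.1% of all genes. With 1 library against 1, these are descriptions without a test. For only 9 genes, a count of 0 is not far from these shares. The genes tested reach down to a summed count of 20, so counting error was not matched.

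**Figure D3:**
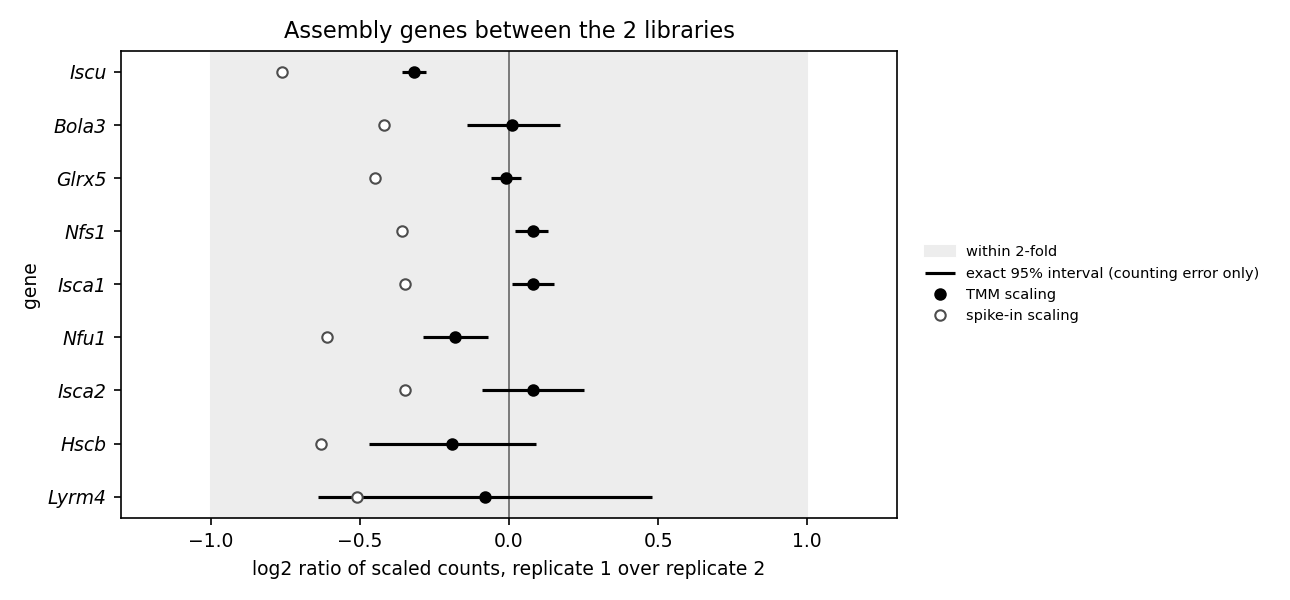
Log2 ratio of scaled counts, replicate 1 over replicate 2, for the 9 assembly genes; filled points use TMM scaling with an exact 95% interval for counting error only, open points use spike-in scaling, and the grey band marks 2-fold. All filled points lie between -0.32 and 0.08, and all open points lie below 0.

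Iscu had the largest ratio in size, -0.32 (95% interval -0.36 to -0.28), from 8622.94 counts in replicate 1 and 11985.9 in replicate 2. Nfu1 was also lower in replicate 1, at -0.18 (-0.29 to -0.07), from 1188 and 1493 counts. Nfs1, at 0.08 (0.02 to 0.13), and Isca1, at 0.08 (0.01 to 0.15), had intervals above 0. The other 5 genes had intervals that held 0, as 38.7% of all genes did: Bola3 at 0.01 (-0.14 to 0.17), Glrx5 at -0.01 (-0.06 to 0.04), Isca2 at 0.08 (-0.09 to 0.25), Hscb at -0.19 (-0.47 to 0.09) and Lyrm4 at -0.08 (-0.64 to 0.48). The intervals cover counting error only, so an interval clear of 0 does not measure the spread between animals.

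Beside the ratio of Iscu, 9 of 10 cortical markers were lower in replicate 1, with a median log2 ratio of -0.42 and Fdx1 as the exception, and 9 of 10 adipocyte markers were higher there, with a median of 0.82. The 5 erythroid markers tested were also all lower in replicate 1, with a median of -0.41, as were all 8 hepatocyte markers, with a median of -3.49. The part of tissue mix in the ratio of Iscu was not tested. In bulk tissue, fewer cells of a type and less RNA per cell cannot be told apart. The direction of the small ratios also depended on scaling. With spike-in counts as the scale, all 9 genes were negative, with a median of -0.45 beside a median of -0.43 for all genes tested, and Bola3, Nfs1, Isca1 and Isca2 changed sign. Iscu had the lowest spike-in-scaled ratio of the 9, -0.76, which is -0.32 relative to the median of all genes.

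Of 15 mitochondrial partners all 15 were detected, and 1 was past 2-fold, in the direction of replicate 1, where 4.78% of all genes were. This was Ndufab1, with a log2 ratio of 1.23 from fractional counts, which was 0.80 and so under 2-fold with spike-in scaling. The median ratio of the partners was 0.05. Fdx1, the steroidogenic ferredoxin, had the highest mean of the list, 3410 TPM, with 3908 TPM in replicate 1, where Ndufab1 was higher, and 2911 TPM in replicate 2, and its reductase Fdxr had 2430 and 2160 TPM. Fdx2, the ferredoxin that serves cluster assembly, averaged 44.5 ± 7.82 TPM (SD, n = 2), and the TPM of Fdx1 was 78.2 and 74.8 times that of Fdx2. The mitochondrial iron importers Slc25a37 and Slc25a28 had 112 and 109 TPM and 70.6 and 84.8 TPM. The lowest partner was Nubpl, a complex I assembly factor, at 3.70 and 4.74 TPM.

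The mitochondrial proteins that carry the clusters were all detected, 14 of 14. Of these 0 were past 2-fold, against 7.63% of all genes tested, and the median log2 ratio was 0.03. Their median level of 149 TPM was above the 59.0 TPM of the assembly genes, as medians of gene means. Ndufs7, a complex I subunit, was the highest, with 1210 TPM in replicate 1 and 1114 TPM in replicate 2. Uqcrfs1, the Rieske protein of complex III, had 1089 and 854 TPM. Sdhb of complex II had 365 and 331 TPM. Ferrochelatase (Fech), the last enzyme of haem synthesis, had 47.3 and 63.4 TPM. Lipoate synthase (Lias), a client that depends on NFU1 and BOLA3 in humans, was the lowest of the list at 4.63 and 6.98 TPM.

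**Figure D4:**
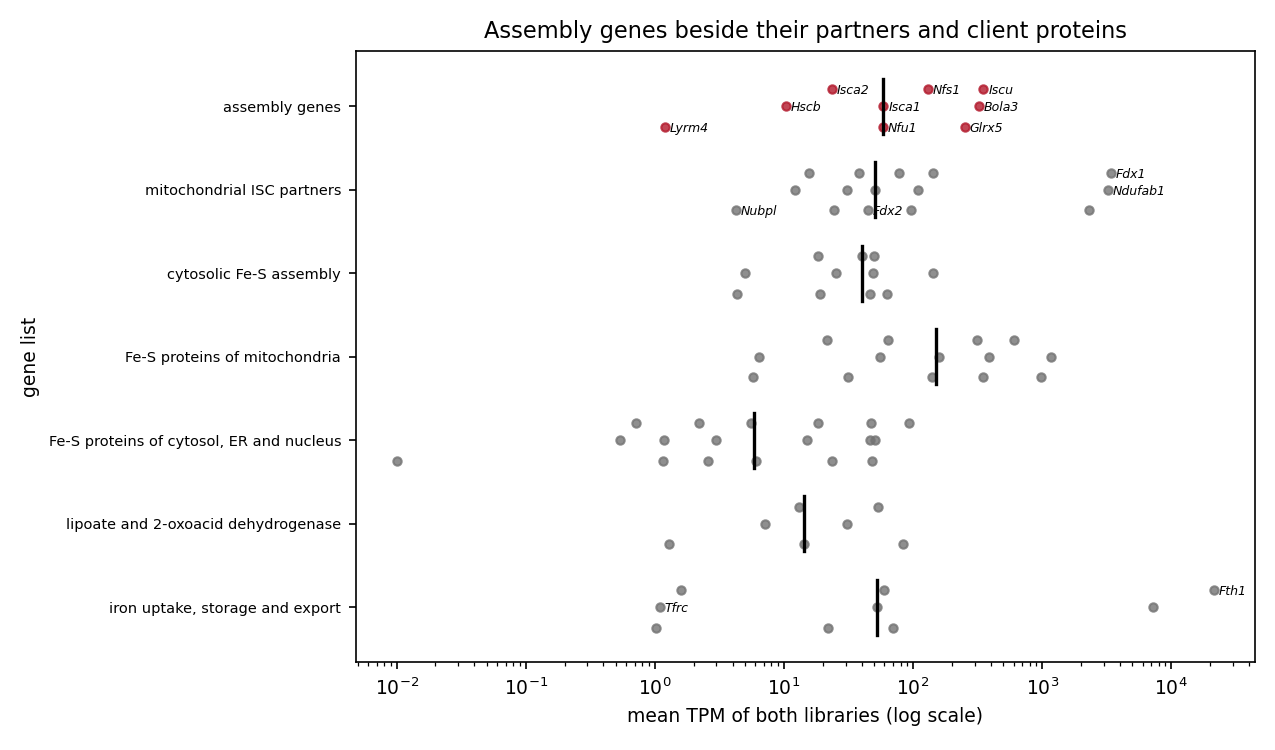
Mean TPM of both libraries (log scale) for the assembly genes (red) and 6 other lists (grey); each point is a gene, black lines are list medians, points are shifted vertically for legibility, and genes with a mean of 0 would not be drawn. The assembly genes have a median of 59.0 TPM, the mitochondrial iron-sulfur proteins 149 TPM, and Fdx1 and Ndufab1 average 3410 and 3214 TPM.

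Several assembly genes lie back to back with another gene. Counting protein-coding neighbours on the opposite strand that start within 1000 bases, 5 of 9 genes (55.6%) had one, against 1820 of 11718 detected coding genes (15.5%), both as annotated in GENCODE M21. Isca2 starts 99 bases from Npc2, a lysosomal cholesterol carrier with 88.7 TPM in replicate 1 and 79.2 TPM in replicate 2. Hscb starts 202 bases from Chek2, a checkpoint kinase with 1.61 and 2.78 TPM, and Iscu 238 bases from Sart3, a splicing factor with 5.68 and 7.53 TPM. The pairs Nfs1 and Romo1 and Lyrm4 and Fars2 overlap at their starts, over 148 and 115 exon bases.

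The members of a pair were not at like levels. Romo1 had 409 TPM in replicate 1 and 414 TPM in replicate 2, above Nfs1, and Fars2, a mitochondrial aminoacyl-tRNA synthetase, had 18.8 and 22.6 TPM, above Lyrm4. Iscu and Hscb stood above their neighbours. The libraries were stranded, but the sources used here do not say whether the counting used strand, so reads in the overlaps of Nfs1 and Lyrm4 cannot be assigned with certainty. Noncoding neighbours were Snhg10 beside Glrx5, not analysed here, and Etohd2 across the start of Isca1, at 0.670 and 1.17 TPM.

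**Figure D5:**
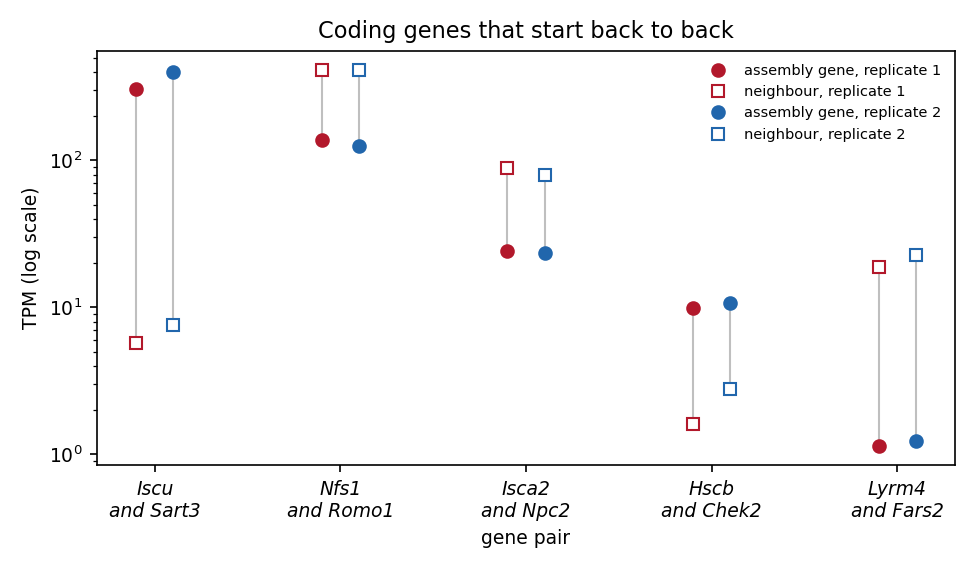
TPM (log scale) of 5 assembly genes (filled circles) and the protein-coding gene that starts beside each on the other strand (open squares), in replicate 1 (red, left) and replicate 2 (blue, right). Iscu and Hscb lie above their neighbours, and Nfs1, Isca2 and Lyrm4 lie below theirs, in both libraries.

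RefSeq promoters, 250 bases before to 50 bases after the start, were matched for 7 of the 9 genes with 9 starts, 3 of them of Bola3. Their median GC content was 63.0% against 52.7% for all 32851 promoters, and their median number of CpG was 24.0 against 7.0. CCAAT was found in 5 genes (Bola3, Glrx5, Isca1, Nfu1 and Isca2), against 37.4% of all promoters, and the GC box GGGCGG in 4 (Bola3, Nfu1, Isca2 and Lyrm4), against 35.7%. The NRF1 core, which allows any base at 1 position, was found in Isca1 and Nfu1, against 4.60% of all promoters, and the ETS motif CCGGAAGT in Nfs1 and Isca1, against 3.89%. The YY1 motif AAGATGGCG was found in Isca2, against 1.40%, and TATAAA in none of the 7, against 13.6%. A gene was counted if any of its starts held the motif, and Bola3 has 3 starts, whereas the shares are per promoter. The 32851 promoters were not limited to detected genes. Both strands were searched and no matches overlapped. Such matches describe the letters only.

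By level over both libraries, on log2(TPM + 1), the coding genes closest to Iscu were Rtl8a with 310 TPM in replicate 1 and 399 TPM in replicate 2, Nadk with 299 and 388 TPM, and Alad with 314 and 410 TPM. Closest to Isca1, the fifth of 9, were Snx1, Pithd1 and Gprc5b, between 59.6 and 60.1 TPM in replicate 1. Closest to Lyrm4 were Sema4f, Rwdd3 and Pkd1l2, between 1.10 and 1.15 TPM in replicate 1. With 2 libraries, likeness of this kind says that levels are close and nothing more.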

How the data were processed

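Poly(A) RNA of adult mouse adrenal gland was measured in 2 libraries of 1 group. Replicate numbers are from the labels. Per the file headers and the readmes, the deposited tables hold an expected count, TPM and FPKM per gene and per transcript, and each transcript's percent of its gene, from alignments to mm10 with annotation M4. The sources used here do not give the aligner or the quantifier. The authors' expected count estimates read pairs and is fractional where reads were shared (whole within 0.005 for 5 of the 9 genes); the authors' TPM is scaled over genes plus spike-ins, and the deposited FPKM by length and fragments. The mm9 tables of contigs and junctions were not used.

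Gene names and positions were matched to GENCODE M21 for 42462 of 43346 identifiers. Library sizes and TPM shares were summed over these 43346 mouse genes, without spike-ins or the other entries among the 69691 deposited. Counts were rounded and scaled with TMM (edgeR 4.0.16, R 4.3.3; DESeq2 1.42.0 size factors as an alternative), with a prior count of 0.5 and a minimum summed count of 20. Ratios have exact Clopper-Pearson 95% intervals (scipy 1.17.1), which cover counting error only. The ratio was checked on simulated data. The simulated counts held counting error only, so the check does not cover the spread between animals or the assignment of reads. Shared sequence was searched in windows of 76 bases, in the direction of the transcripts only. There is 1 library against 1, so no p-value was computed.

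The genes and lists were chosen with earlier results of these data known. Named are the 9 genes, fixed partners, the highest and lowest detected gene and any gene past 2-fold of each pathway list, the nearest opposite-strand start within 1000 bases, and the 3 coding genes closest in level to the highest, middle and lowest of the 9 genes. AK157302, Gm49354, Gm16437, Gm28036 and Gm7859 were named for their shared sequence. Some genes that this rule or the lists cover are not reported here. Alternatives covered scaling, filters, prior count, the posterior mean estimates and each replicate left out.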

Additional observations from a re-analysis of the deposited data

How the results depend on the processing

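The summed level of the 9 genes, 1212 TPM, was 1319 TPM with TPM rescaled over protein-coding genes and 901 TPM without transcripts shorter than 200 nt, an alternative chosen after seeing the data; the change comes from Bola3 alone among the 9 genes. With 1 replicate left out it ranged from 1142 to 1281 TPM. In the order of levels, 4 of 9 genes kept their position by depth-scaled expected counts, which are not divided by length, 3 of 9 without the short transcripts, and 7 to 9 with 1 replicate left out. By counts and without the short transcripts, only Bola3 moved relative to the other genes, which kept their order among themselves. The median log2 ratio, -0.01, was -0.45 with spike-in counts and -0.07 on log2(TPM + 1), where Bola3 changed sign; the cause was not tested. DESeq2 size factors, total counts, posterior means and a prior count of 5 changed no sign among the 9 genes. No alternative put any of the 9 past 2-fold. Genes with over 90% of TPM in 1 transcript numbered 5, and 5 to 6 with 1 replicate left out. No ratio exists with a replicate left out. No paired analysis was possible because there is only 1 group. Depth limits Lyrm4 most, with 52 counts in replicate 1 and 61 in replicate 2.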

Other observations

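The cytosolic assembly machinery, which makes clusters for enzymes outside mitochondria, was detected in full, 11 of 11 genes. Between the libraries 0 were past 2-fold, against 7.63% of all genes tested, and the median log2 ratio was -0.05. A list this short would hold few such genes at that share, which also holds for the lists below. Ciapin1, an early electron carrier of that machinery, was its highest gene, with 126 TPM in replicate 1 and 159 TPM in replicate 2. Glrx3, a cytosolic multidomain glutaredoxin, was its lowest, with 4.39 and 4.25 TPM. The TPM of its mitochondrial relative Glrx5 was 56.3 and 60.3 times that, with the deposited length of Glrx5, which differs between annotations. Of 18 genes for iron-sulfur proteins of cytosol, endoplasmic reticulum and nucleus, 15 were detected. Past 2-fold were 0 of the 17 tested, against 7.63% of all genes tested, with a median of -0.15. By mean TPM, the detected genes of this list ranged from Ercc2, a DNA repair and transcription helicase, with 92.8 and 94.5 TPM, to Pole, a replicative DNA polymerase, with 1.08 and 1.22 TPM.

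The list for lipoate and the 2-oxoacid dehydrogenases, which holds transferases of the lipoate pathway, lipoylated proteins and their shared dehydrogenase Dld, had 7 of 7 genes detected. Past 2-fold were 0, against 7.63% of all genes tested. The median log2 ratio was 0.27, or -0.17 with spike-in scaling. Dlst, a subunit of the 2-oxoglutarate dehydrogenase, was highest with a mean of 83.8 ± 8.78 TPM (SD, n = 2), and Lipt1, a lipoyl transferase, was lowest with 1.27 TPM in replicate 1 and 1.32 TPM in replicate 2. Of 9 genes for iron uptake, storage and export 8 were detected. Past 2-fold were 0, against 7.63% of all genes tested, with a median of -0.18. Fth1, the ferritin heavy chain, had 23154 and 19613 TPM, and the transferrin receptor Tfrc had 1.01 and 1.17 TPM.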
